A study of Mus musculus with 6 samples.

Results

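The mucins described here are 9 genes, matched by name in the deposited table of normalized counts: the secreted, gel-forming mucins Muc2, Muc5ac, Muc5b and Muc6, and the membrane mucins Muc1, Muc3, Muc4, Muc13 and Muc20. They are 9 of the 23525 genes of that table and of the 53379 genes annotated. Their RNA was measured in 6 libraries of total RNA from organoids, epithelial cultures grown from mouse pancreatic tumours in a dome of Matrigel. All 6 came from C57/Bl6 animals of a genetically engineered tumour model, which carry a Trp53LSLR172H allele that Pdx1-Cre switches on in the pancreatic lineage. The heterozygous libraries (n = 3) kept a wild-type Trp53 allele (Trp53LSLR172H/+), and the LOH libraries (loss of heterozygosity, n = 3) had lost it (Trp53LSLR172H/-). Lines 6, 23 and 34 each gave 1 library of each kind, and values given 3 at a time follow that order of lines. No label gives the age of the animals or says whether the lines came from separate ones, so p-values measure the spread between these lines. Each LOH sample is also described by a name ending in "Nut", which no label explains, so whatever it marks cannot be told apart from genotype. The comparison asks how mucin transcripts differ between cultures with and without the wild-type Trp53 allele.

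Mucins are large glycoproteins with long stretches rich in serine and threonine, to which O-linked sugar chains are attached. Secreted mucins are packed into granules, link into polymers through their cysteine-rich ends and form the mucus gel. Membrane mucins are held in the apical surface by a transmembrane segment, and several carry EGF-like domains or a cytoplasmic tail that binds signalling proteins. In human pancreatic precursor lesions and cancers MUC1, MUC4 and MUC5AC are known markers, and MUC2 marks intestinal-type lesions.

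The serine- and threonine-rich stretches can be read in the coding sequences of the annotation (GENCODE mouse release 21, GRCm38). Codons for these 2 amino acids made up 13.3% of the longest coding sequence in the median of 21210 genes. They made up 23.5% in Muc5ac, 26.2% in Muc5b and 32.0% in Muc6 among the secreted mucins. Among the membrane mucins the share was 34.9% in Muc1, 38.1% in Muc4, 30.7% in Muc13 and 35.2% in Muc20. Muc3 lay at 14.0%, in a gene model of 378 codons, and Muc2 at 19.5% in a model of 922 codons that lacks a start codon. The models of Muc2 and Muc3 therefore may not hold the repeats of the full genes, and their lengths, on which TPM depends, are uncertain. Tandem repeats with at least 3 copies, at least 75% identity and a period of 15 to 600 bases were found in 3 of the 9 coding sequences. Only a leading period was judged in each coding sequence, so repeats with another period could be missed. The Muc5ac repeat has a period of 48 bases and runs over 1169 bases, and the Muc13 repeat has a period of 81 bases, runs over 582 bases (33.9% of the coding sequence) and keeps 99.0% identity between neighbouring copies. In Muc4 a degenerate repeat of 372 bases runs over 3657 bases with 76.8% identity. The units of the first pair are shown, since they are dense in the residues to which O-linked sugars can be attached, and that of Muc13 is read from its longest coding model, to which the authors' transcript estimates assign 0 counts in all 6 libraries. Capitals mark serine and threonine codons, 10 of 16 in Muc5ac and 15 of 27 in Muc13.
Muc5ac repeat unit: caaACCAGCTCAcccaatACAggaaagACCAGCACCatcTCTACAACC
Muc13 repeat unit: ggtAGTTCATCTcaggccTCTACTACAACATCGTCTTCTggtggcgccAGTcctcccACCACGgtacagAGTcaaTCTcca

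Library totals ran from 13680458 to 27917277 expected counts, and 3 counts corresponded to 0.1 to 0.223 CPM (counts scaled to library size by TMM). Trp53 was at 76.3 to 86.5 CPM in the heterozygous and 47.4 to 73.5 CPM in the LOH libraries, a log2 fold change of -0.47 that did not pass (adjusted p 0.227, edgeR), and the gene counts do not separate the mutant from the wild-type transcript. All 8 epithelial markers were above 1 CPM, with sums from 5176 to 11410 CPM. None of 7 endocrine or 8 fibroblast markers reached 1 CPM in any library, and Ins1, Ins2 and Col3a1 were at 0 counts. The fibroblast sums were 0.0742 to 0.1 CPM in heterozygous and 0.512 to 1.11 CPM in LOH libraries. Of 10 acinar markers Cela1 and Bhlha15 reached 1 CPM, with sums of 1.10 to 1.93 CPM in heterozygous and 2.05 to 6.64 CPM in LOH libraries and no count of Pnlip, Amy2b or Ptf1a. Of 7 leukocyte markers only Cd68 did, with sums of 1.93 to 2.37 CPM and 3.26 to 14.9 CPM and no count of Adgre1, and of 4 endothelial markers only Tek did, with sums of 0.0334 to 0.1 CPM and 0.372 to 2.62 CPM. The fibroblast, acinar, leukocyte and endothelial sums were higher in every LOH library than in any heterozygous one, and their part in the mucin values was not tested. In bulk RNA fewer cells that make a transcript and less of it per cell cannot be told apart.

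Membrane mucins made up nearly all mucin RNA in both groups, and Muc1 was the most abundant mucin in every library. Per transcript length, in TPM, Muc1 stood at 213, 148 and 122 in heterozygous cultures and at 201, 277 and 63.7 in LOH cultures. The 4 other membrane mucins together stood at 4.30, 2.97 and 1.21 TPM in the heterozygous and at 13.6, 46.0 and 14.2 TPM in the LOH libraries, so these sums did not overlap between the groups. The 4 secreted mucins together stood at 1.89, 0.57 and 0.62 TPM and at 1.34, 5.26 and 2.76 TPM, with the LOH library of line 6 inside the heterozygous range. Muc1 gave 97.2%, 97.7% and 98.5% of the summed mucin TPM in heterozygous cultures and 93.1%, 84.4% and 79.0% in LOH cultures. The secreted mucins gave at most 3.42% of it in any library. TPM values also share their total with other RNA: genes of the deposited protein-coding table held 46.1% to 48.9% of TPM in the heterozygous and 32.7% to 39.5% in the LOH libraries. On TPM rescaled to protein-coding genes the log2 ratio of the group means was 2.08 for the secreted and 0.75 for the membrane sum, against 1.60 and 0.32 on the TPM deposited.

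**Figure D1:**
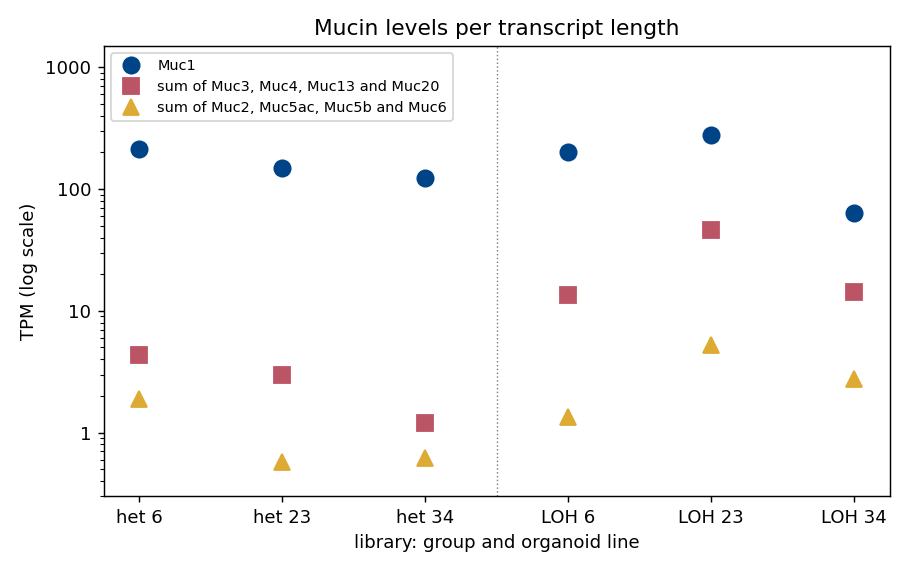
TPM per library (log axis) of Muc1, of the other 4 membrane mucins summed and of the 4 secreted mucins summed, by group and organoid line. Muc1 lies at the top in all 6 libraries, and the other membrane mucins lie between 1.21 and 4.30 TPM in the heterozygous and between 13.6 and 46.0 TPM in the LOH libraries.

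By mean TPM the order in the heterozygous libraries was Muc1, Muc20, Muc5ac, Muc4, Muc2, Muc6, Muc13, Muc3 and Muc5b. Only Muc1 and Muc20 were separated from each other by ranges that did not overlap. All the other neighbours in that order overlapped over the 3 libraries. In LOH the order was Muc1, Muc4, Muc20, Muc13, Muc2, Muc5ac, Muc3, Muc5b and Muc6. There the ranges separated Muc1 from Muc4 and Muc13 from Muc2, and the other neighbours overlapped. The place of Muc2 depends on its gene model of uncertain length. Of its 2.79 TPM in LOH line 23, 0.89 came from a transcript of 447 bases with 8 counts. Muc4, Muc20 and Muc13 had nearly equal means of 7.98, 7.97 and 7.84 TPM in LOH, against 0.58, 2.08 and 0.11 TPM in the heterozygous libraries. The LOH library of line 23 held the highest CPM of 7 of the 9 mucins, and the LOH library of line 6 that of Muc6 and Muc3.

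In the quasi-likelihood test of edgeR, 1 of the 8 mucins tested, Muc13, had an adjusted p under 0.05, and it was higher in LOH. Over all 14537 genes tested 5.21% passed, with 3.55% of all genes tested higher and 1.66% lower in LOH. Muc3 did not pass the filter on low counts. All 8 tested mucins had log2 fold changes above 0, as had 54% of all genes tested, with a median of 2.56 (2.29 for the secreted and 3.47 for the membrane mucins) against 0.06 over all genes tested. Of the 8, 6 had an unadjusted p under 0.05 as higher, against 14.7% of all genes tested. Among the tested mucins every LOH library lay above every heterozygous one in CPM for Muc4, Muc13 and Muc20, and for no secreted mucin, against 16.4% of all genes tested. These counts over the tested mucins are descriptions, since Muc13 had at most 7 counts in a heterozygous library and met the filter through its LOH libraries. Muc2, Muc5b and Muc6, with heterozygous counts as low as 6, 7 and 4, also needed LOH libraries to meet it. Without LOH line 6, 5 of 8 passed as higher (Muc2, Muc5b, Muc4, Muc13 and Muc20), where 7.5% of all genes tested did and 16.2% passed in either direction. Without any 1 heterozygous library, or without both libraries of line 23 or 34, 0 passed, in fits where no gene at all passed and 2 to 6 mucins had an unadjusted p under 0.05. DESeq2 called 5, all higher, against 9.54% of all genes tested as higher and 15.7% in either direction. With no filter on low counts 3 passed as higher (Muc4, Muc13 and Muc20), against 2.52% as higher and 3.62% in either direction.

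**Figure D2:**
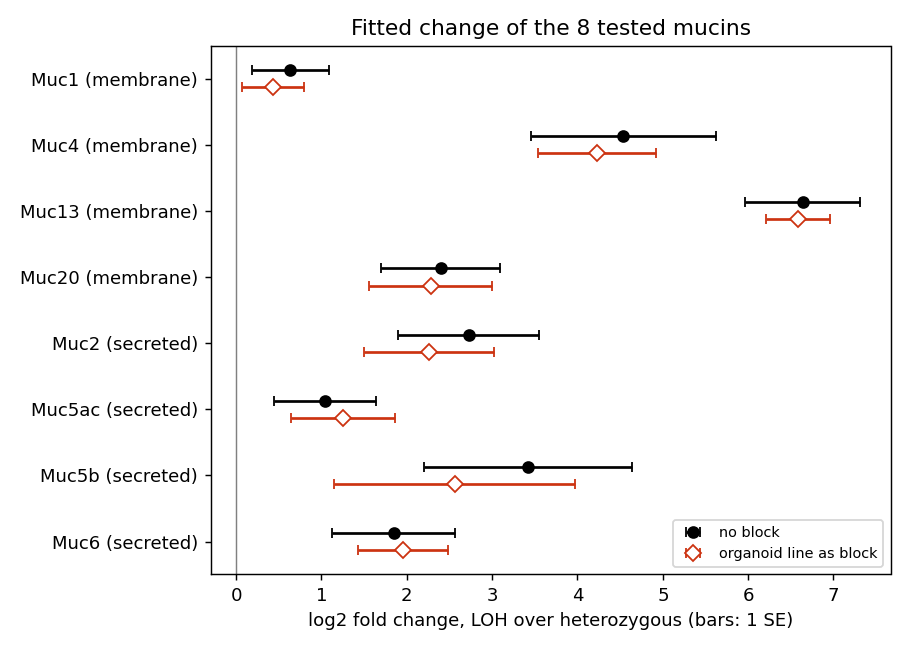
Log2 fold change of LOH over heterozygous libraries with its standard error for the 8 tested mucins, without a block (circles) and with organoid line as a block (diamonds). All values lie to the right of 0, from 0.63 for Muc1 to 6.64 for Muc13 without the block, and Muc13 alone passed the threshold.

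Muc13 is a membrane mucin of the intestinal and gastric epithelium with EGF-like domains. Muc13 (ENSMUSG00000022824.12, chromosome 16, 33794037 to 33819934, plus strand, GRCm38) was nearly silent in heterozygous cultures, at 0.1, 0.519 and 0.234 CPM (3, 7 and 7 counts). In LOH cultures it reached 15.2, 40.2 and 21 CPM (261, 1066 and 451 counts). All LOH libraries were far above all heterozygous ones, and the heterozygous levels were near the value of 3 counts. Group means were 0.284 ± 0.214 and 25.5 ± 13.1 CPM (SD, n = 3 each). The fitted log2 fold change was 6.64 (SE 0.67, 99.5-fold) with an adjusted p of 0.0109 in edgeR. Blocking on organoid line gave 6.58 (SE 0.38) with an adjusted p of 0.0257. The log2 ratios of LOH over heterozygous inside each line were 6.36, 6.06 and 6.04. In line 6, where the heterozygous library held 3 counts, the CPM ratio was 152 with an exact 95% counting interval from 51.4 to 741. The call was lost when 1 heterozygous library was left out: without that of line 6, 23 or 34 the adjusted p in edgeR was 0.0704, 0.0735 and 0.0813, and no gene passed in those fits. Without both libraries of line 23 or of line 34 it was 0.143 and 0.0901, with the log2 fold change at 6.72 and 6.69.

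All Muc13 counts were assigned to a transcript of 2942 bases that starts at base 33794367, and none to the one that starts at 33794037. The noncoding gene Gm15657 lies on the opposite strand across these starts. It had no counts in the heterozygous libraries and in LOH line 6, and 8 and 3.03 counts in LOH lines 23 and 34. In LOH line 34 the expected count of Muc13, 450.97, was not whole either, so reads may have been divided between these genes. Whether the few Gm15657 counts come from Muc13 RNA was not tested. The sequence before the start of the counted transcript is shown because this promoter belongs to the mucin that passed. It is 128 bases of the plus strand (chr16:33794239-33794366) from the RefSeq promoter table for GRCm38.p6.
Muc13, upstream of the counted transcript: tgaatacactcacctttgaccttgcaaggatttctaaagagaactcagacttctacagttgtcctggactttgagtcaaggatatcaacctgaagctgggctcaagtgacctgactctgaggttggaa

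This stretch held none of the 7 motifs searched on both strands. Of 32851 windows of 300 bases around start sites, the TATA box TATAAA was in 13.6%, the HNF1-type motif GTTAAT in 7.1% and the CDX-type motif TTTATNG in 10.9%. The FOXA-type motif TGTTTAC was in 3.65% of windows, the GATA-type motif AGATAA in 11.2%, the GC box GGGCGG in 35.7% and the KLF-type motif CACCC in 57.5%. In the full window of Muc13 there was 1 match, GTTAAT at 61 bases before the start site that RefSeq gives, which lies inside the first exon of the counted transcript. RefSeq windows were matched for 7 of the 9 mucins, all but Muc5ac and Muc5b.

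The genes whose pattern over the 6 libraries was most like that of Muc13, by the root mean square difference of centred log2 CPM among 12677 genes averaging 1 CPM or more, were Upk1b, Mgat4c and Ptges. The distances were 0.912, 0.993 and 0.9997, against a median of 3.16. Upk1b, a uroplakin of the tetraspanin family, was at 0.0334 to 0.519 CPM in the heterozygous and 3.07 to 12.4 CPM in the LOH libraries. Mgat4c, a glycosyltransferase of the N-glycan branching family, was at 0.0667 to 0.445 and 3.07 to 8.003 CPM. Ptges, the inducible prostaglandin E synthase, was at 0.834 to 2.08 and 11.3 to 56.1 CPM. All 3 were highest in the LOH library of line 23, as Muc13 was. They were picked for likeness to Muc13 over these same 6 libraries, so the shared pattern follows from that choice.

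**Figure D3:**
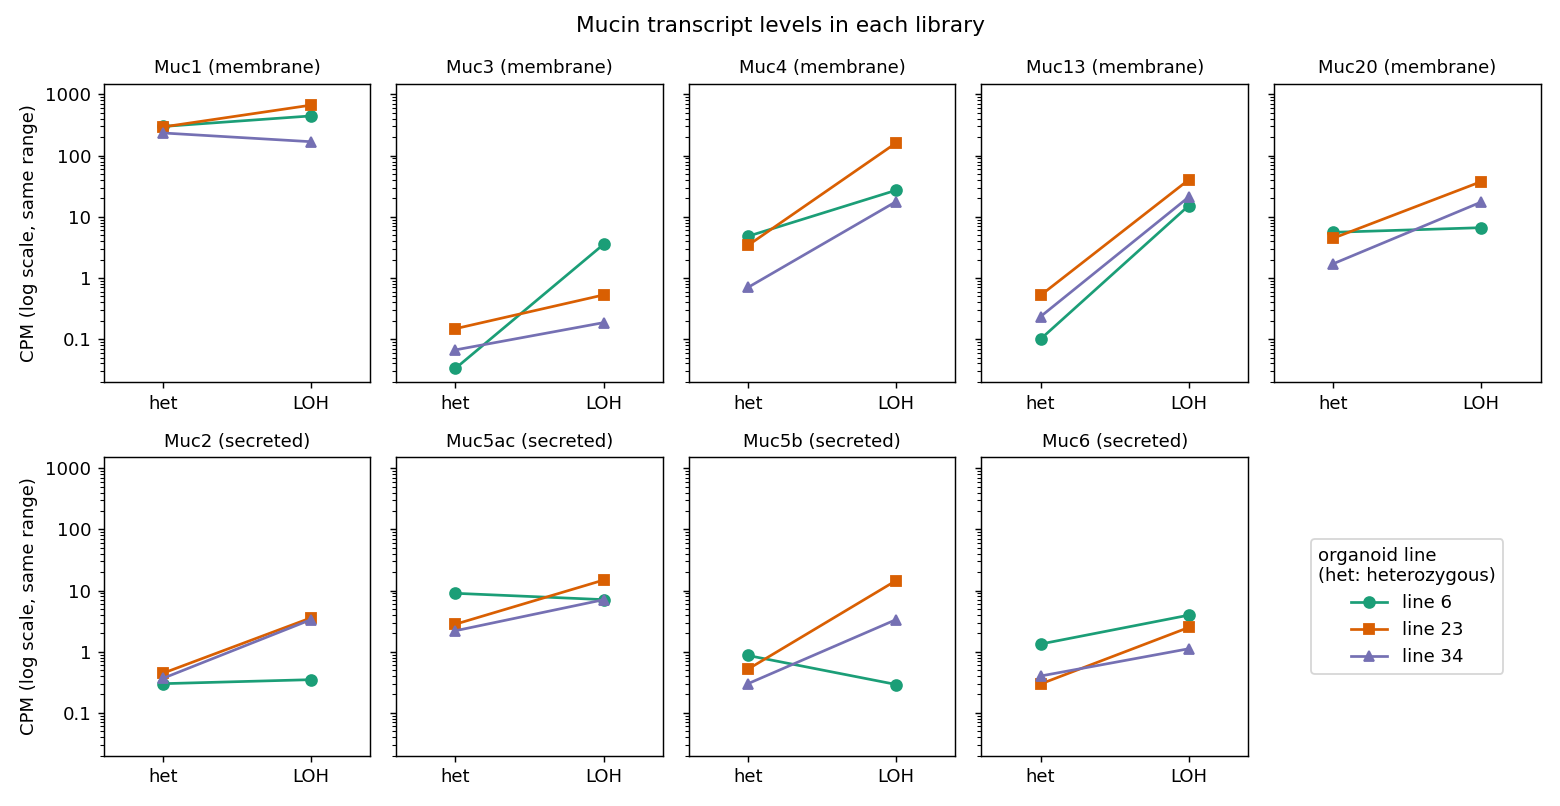
CPM of each mucin (log axis, the same range in every panel) in the heterozygous and LOH library of each organoid line, joined by line. Muc4, Muc13 and Muc20 lie higher in each LOH library than in any heterozygous one, as do 16.4% of all genes tested. Muc3, which was not tested, does so near the counting floor, with 4 counts in LOH line 34 against 2 in heterozygous line 23. Muc5ac and Muc5b lie lower in LOH in line 6 and Muc1 lies lower in LOH in line 34.

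Muc4, a very large membrane mucin whose EGF-like domains are known to bind ErbB2, did not overlap between the groups but missed the threshold. Muc4 (ENSMUSG00000079620.13, chromosome 16, 32735886 to 32782391, plus strand) measured 4.80, 3.41 and 0.701 CPM in heterozygous cultures and 27.2, 161 and 17.7 CPM in LOH cultures. Every LOH library was above every heterozygous one, and that of line 23 stood apart from the other two. Group means were 2.97 ± 2.09 and 68.8 ± 80.4 CPM (SD, n = 3 each). Its fitted change, 4.54 on the log2 scale (SE 1.09), had an adjusted p of 0.0601 in edgeR and did not pass, nor with the block (4.23, SE 0.69, adjusted p 0.0623). Single libraries decided which side of the threshold it fell on: the adjusted p in edgeR was 0.0409 without LOH line 6 and 0.0498 without LOH line 34, in a range from 4.4e-06 in DESeq2 to 0.271 over 19 alternatives. The log2 fold change was 2.92 without LOH line 23, and 5.54 and 3.02 without both libraries of line 6 or of line 23. The ratios within lines, in log2, were 2.48, 5.53 and 4.50.

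Muc20, a smaller membrane mucin known to associate with the Met receptor, lies tail to tail with Muc4. Muc20 (ENSMUSG00000035638.14, chromosome 16, 32777419 to 32797435, minus strand) measured 5.57, 4.45 and 1.70 CPM in heterozygous cultures and 6.64, 37.6 and 17.4 CPM in LOH cultures. The groups did not overlap in CPM, but the LOH library of line 6 was only just above its heterozygous partner. In TPM the groups overlapped, with LOH line 6 at 2.81 and heterozygous line 6 at 3.27. The log2 ratios within lines, from CPM, were 0.25, 3.05 and 3.29. Group means were 3.91 ± 1.99 and 20.6 ± 15.7 CPM (SD, n = 3 each), and the log2 fold change of 2.40 (SE 0.70) did not pass (adjusted p 0.0916, edgeR). Without LOH line 6 it was 2.78 with an adjusted p of 0.0314 in edgeR, and without LOH line 23 it was 1.62 with one of 0.195. Without both libraries of line 6 or of line 23 it was 3.17 and 1.72. Over 19 alternatives the adjusted p ran from 0.00374 to 0.390.

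The annotations of Muc4 and Muc20 share 4973 bases on opposite strands (chr16:32777419-32782391). Their expected counts were not whole alone in 4 libraries but summed to whole numbers in 6 of 6, within 0.02 counts, so some reads were divided between them. With the counts of both summed into 1 gene the log2 fold change was 3.70 (adjusted p 0.0619, edgeR). For the Muc20 transcript that does not reach Muc4, which held at least 93.95% of the Muc20 TPM in every library, it was 2.39 (adjusted p 0.0932). The Muc4 promoter is shown beside that of Muc1 because these membrane mucins had far apart levels in the heterozygous libraries, 0.58 ± 0.37 and 161 ± 46.8 TPM (SD, n = 3 each). Each stretch is 250 bases upstream of the RefSeq start site, on the plus strand, chr16:32735636-32735885 for Muc4 and chr3:89228806-89229055 for Muc1. Capitals mark motif matches.
Muc4 promoter: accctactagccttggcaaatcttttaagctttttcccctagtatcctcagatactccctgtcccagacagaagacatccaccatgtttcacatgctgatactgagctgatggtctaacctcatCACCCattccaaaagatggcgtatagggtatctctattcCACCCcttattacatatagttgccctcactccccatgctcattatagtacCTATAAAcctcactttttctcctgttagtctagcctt
Muc1 promoter: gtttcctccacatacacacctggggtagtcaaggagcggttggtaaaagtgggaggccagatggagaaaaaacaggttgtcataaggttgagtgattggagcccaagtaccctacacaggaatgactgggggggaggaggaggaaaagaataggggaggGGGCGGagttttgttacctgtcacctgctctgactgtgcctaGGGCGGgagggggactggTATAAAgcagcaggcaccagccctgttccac

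In Muc4 the match to TATAAA begins 36 bases upstream and overlaps a CDX-type match on the opposite strand, and the 2 matches to CACCC begin 126 and 87 bases upstream. In Muc1 the 2 matches to GGGCGG begin 91 and 49 bases upstream and the match to TATAAA begins 31 bases upstream.

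Muc1, whose cytoplasmic tail is known to bind beta-catenin and receptor kinases, overlapped between the groups, with a wide spread in LOH. Muc1 (ENSMUSG00000042784.9, chromosome 3, 89229057 to 89233381, plus strand) measured 299, 294 and 234 CPM in heterozygous cultures and 445, 668 and 169 CPM in LOH cultures. The LOH libraries of lines 6 and 23 were above all heterozygous ones and that of line 34 was below them. Group means were 276 ± 36.0 and 427 ± 250 CPM (SD, n = 3 each), with a log2 fold change of 0.63 (SE 0.45, adjusted p 0.413, edgeR). On log2(TPM + 1) the log2 fold change was -0.04, where the median of all genes was at -0.35. The ratios within lines, in log2, were 0.57, 1.19 and -0.47. A transcript of 2242 bases held at least 83.7% of the Muc1 TPM in every library.

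Muc3, a membrane mucin of the intestinal brush border, was near the counting floor in most libraries and was not tested. Muc3 (ENSMUSG00000037390.12, chromosome 5, 137134922 to 137149322, minus strand) had 1, 2 and 2 counts in the heterozygous libraries. The LOH libraries had 61, 14 and 4 counts, or 3.55, 0.529 and 0.186 CPM. Only the LOH library of line 6 stood well clear of the others. The CPM ratio within lines was 106 in line 6 (exact 95% counting interval 18.4 to 4272), 3.56 in line 23 (0.818 to 32.3) and 2.79 in line 34 (0.40 to 30.8). The intervals of lines 23 and 34 include 1, and they cover counting error only.

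The 4 secreted mucins lie side by side within 239629 bases on chromosome 7, and none of them passed the test. Muc5ac is the gel mucin of gastric surface mucous cells. Muc5ac (ENSMUSG00000037974.16, chromosome 7, 141788972 to 141819231, plus strand) measured 9.01, 2.82 and 2.20 CPM in heterozygous cultures and 7.10, 14.8 and 7.08 CPM in LOH cultures. The groups overlapped, since heterozygous line 6 was above the LOH libraries of lines 6 and 34. The log2 fold change was 1.04 (SE 0.60, adjusted p 0.322, edgeR), and the ratios within lines, in log2, were -0.34, 2.36 and 1.65. Leaving out heterozygous line 6 gave 1.92, with an unadjusted p of 0.00718 and an adjusted p of 0.157 in edgeR. Without both libraries of line 6 or of line 23 the value was 2.10 and 0.34.

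Muc5b, the salivary and airway gel mucin, showed the widest spread of the secreted mucins. Muc5b (ENSMUSG00000066108.7, chromosome 7, 141839070 to 141873084, plus strand) measured 0.867, 0.519 and 0.3 CPM in heterozygous cultures and 0.291, 14.6 and 3.35 CPM in LOH cultures. LOH line 6 was the lowest of all 6 libraries and LOH line 23 the highest. The log2 fold change of 3.42 (SE 1.22) had an adjusted p of 0.138 in edgeR, and the log2 ratios within lines were -1.34, 4.60 and 3.15. Leaving out LOH line 6 gave 3.93 with an adjusted p of 0.0284 in edgeR, and leaving out LOH line 23 gave 1.69 (0.375). Without both libraries of line 6 or of line 23 it was 4.46 and 1.64. Over all 15 alternatives the adjusted p ran from 0.0118 to 0.597.

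Muc2, the gel mucin of intestinal goblet cells, had 11 counts or fewer in 4 of the 6 libraries. Muc2 (ENSMUSG00000025515.15, chromosome 7, 141690340 to 141754693, plus strand) had 9, 6 and 11 counts in the heterozygous libraries and 6, 95 and 72 counts in the LOH libraries. In CPM these were 0.3, 0.445 and 0.367 against 0.349, 3.59 and 3.35, so LOH line 6 lay inside the heterozygous range and the other LOH libraries lay above it. The log2 fold change of 2.72 (SE 0.83) did not pass (adjusted p 0.0999, edgeR). Without both libraries of line 6 it was 3.07 with an adjusted p of 0.0390 in edgeR. Without LOH line 6 alone it was 3.19 with an adjusted p of 0.0160 in edgeR, in a range from 0.0160 to 0.397 over 14 alternatives.

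Muc6, the mucin of gastric glands and small pancreatic ducts, measured 1.33, 0.297 and 0.401 CPM in heterozygous cultures and 3.96, 2.49 and 1.12 CPM in LOH cultures. Muc6 (ENSMUSG00000048191.15, chromosome 7, 141633456 to 141655319, minus strand) was higher in LOH within each line, by log2 ratios of 1.51, 2.75 and 1.31. The groups overlapped, because LOH line 34 was below heterozygous line 6. The log2 fold change of 1.85 (SE 0.72) did not pass (adjusted p 0.167, edgeR). It was 2.78 without heterozygous line 6, and 1.32 without LOH line 6, with adjusted p-values of 0.164 and 0.265 in edgeR.

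Of 14 other mucin family genes, 11 were in the annotation and 2 were tested, neither passing. Cd164, a sialomucin of the endosome and cell surface, measured 171, 155 and 167 CPM in heterozygous cultures and 110, 182 and 257 CPM in LOH cultures (log2 fold change 0.16, adjusted p 0.774, edgeR). Mucl3, which the deposited table names Dpcr1, had 10.1, 3.34 and 1.77 CPM and 89.8, 6.42 and 10.4 CPM. It was higher in LOH within each line but overlapped between the groups, with a log2 fold change of 2.79 (SE 1.13, adjusted p 0.179, edgeR). Muc3a, which was not tested, had 3, 0 and 0 counts in the heterozygous and 19, 4 and 8 counts in the LOH libraries. Muc15 and Muc16 had at most 2 counts in a library and Otogl at most 1, and Muc19, Mucl1, Mucl2, Emcn and Otog had none.

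Genes beside the mucins were read against the 5.21% of all genes tested that passed. Within 500 kb of the 4 secreted mucins 34 other genes were tested, with a median log2 fold change of -0.17. Irf7 (2.30) and Cdhr5 (3.21) were called higher and Tspan4 (-0.92) lower, and the adjacent Ap2a2 and Tollip, at -0.48 and -0.16, were not called. Around Muc4 and Muc20, 0 of 18 genes were called and the median was 0.02. Around Muc13, 1 of 8 was called, the integrin subunit gene Itgb5, which lies 9731 bases away with a log2 fold change of 2.21 (adjusted p 0.0370, edgeR). Around Muc1, Thbs3 (2.18), Efna3 (2.70) and Shc1 (1.23) were called among 40 genes, and around Muc3, Trim56 (1.12) among 28. The median log2 fold change of genes with at least 5 CPM was -0.03 on chromosome 16 and -0.16 on chromosome 7. On chromosome 7 the median in line 23, whose LOH library held the highest CPM of Muc2, Muc5ac and Muc5b but not of Muc6, was -0.46.

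The enzymes that build mucin O-glycans were described through a list of 41 genes. Of 29 tested, 5 were called higher and 1 lower in LOH (20.7% of the tested members against 5.21% of all genes tested), and the median log2 fold change was 1.10. The list was chosen with earlier results of these data known, so these shares are descriptions. Without any 1 heterozygous library, or without both libraries of line 23 or 34, 0 were called, with 12 to 16 at an unadjusted p under 0.05. Galnt7, which adds N-acetylgalactosamine to partly glycosylated peptides, rose from 47.4, 31.7 and 34.3 CPM to 119, 125 and 125 CPM (log2 fold change 1.70, SE 0.21, adjusted p 0.0164, edgeR). Galntl6, of the same family, was at most 0.567 CPM in heterozygous libraries and 4.61 to 7.44 CPM in LOH (3.89, SE 0.48). It had 17, 3 and 9 counts in the heterozygous libraries and met the filter on low counts through its LOH libraries. Gcnt4, a core branching enzyme, rose by a log2 fold change of 3.15 (SE 0.66). Fut1 and Fut2, the fucosyltransferases that make the H antigen, rose by 2.23 (SE 0.43) and 1.49 (SE 0.24), and Fut2 went from 65.3 to 98.5 CPM in the heterozygous to 196 to 277 CPM in the LOH libraries. St3gal4, a sialyltransferase, fell from 111, 151 and 129 CPM to 35.1, 30.2 and 54.4 CPM (log2 fold change -1.71, SE 0.27). With the organoid line as a block Galnt7 and Galntl6 still passed, at adjusted p-values in edgeR of 0.0499 and 0.0431, and the other 4 did not, at 0.0662 to 0.0891. That is 6.90% of the tested members, against 1.47% of all genes tested with the block.

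By mean CPM, which is not scaled for transcript length, the leading O-glycan enzymes were Gcnt3, B3gnt3, Fut2 and Galnt1. Gcnt3, the core branching enzyme of mucin-secreting epithelia, was at 259 to 315 CPM in heterozygous and 165 to 321 CPM in LOH libraries (log2 fold change -0.38, adjusted p 0.433, edgeR). B3gnt3, which extends core chains, was at 124 to 145 and 179 to 275 CPM (0.66, adjusted p 0.124, edgeR). Galnt1, which starts chains, was at 97.9 to 118 and 81.7 to 187 CPM (0.16, adjusted p 0.789, edgeR).

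**Figure D4:**
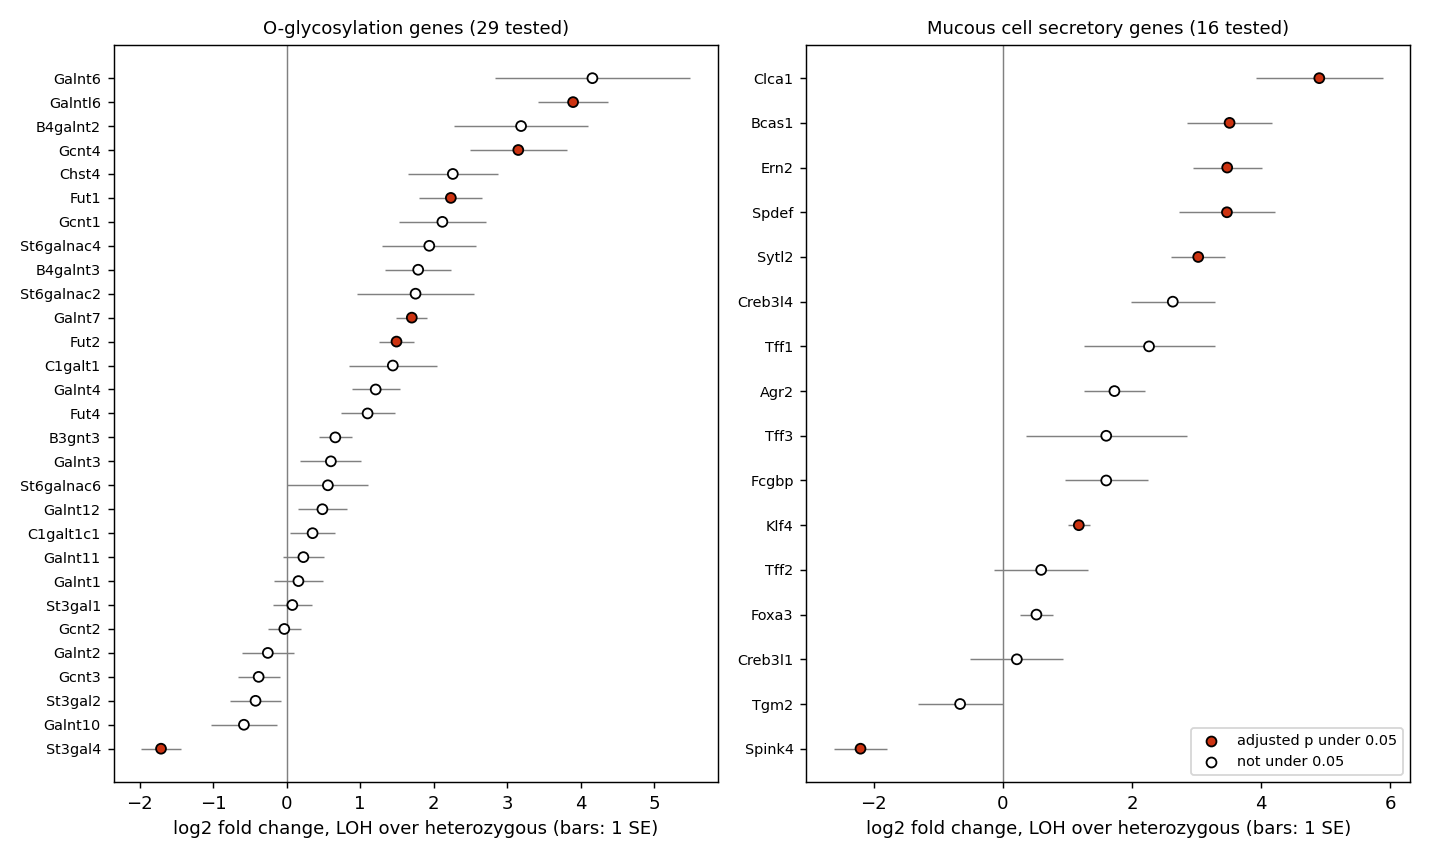
Log2 fold change of LOH over heterozygous libraries with its standard error for the tested O-glycosylation genes (left) and mucous cell secretory genes (right), without a block. Filled points have an adjusted p under 0.05: 5 higher and 1 lower on the left, 6 higher and 1 lower on the right.

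Genes of the mucous cell secretory apparatus were taken from a list of 26, whose summed level was 235 to 309.5 CPM in heterozygous and 450 to 1147 CPM in LOH libraries. Of 16 tested, 6 were called higher and 1 lower (43.8% of the tested members against 5.21% of all genes tested), with a median log2 fold change of 1.67. The list was chosen with earlier results of these data known, so its shares are descriptions. Without any 1 heterozygous library, or without both libraries of line 23 or 34, 0 were called, with 9 to 13 at an unadjusted p under 0.05, and without both of line 6 there were 4. Spdef, the transcription factor of goblet cells, rose from 0.968 to 2.13 CPM in the heterozygous to 4.70 to 34.9 CPM in the LOH libraries (log2 fold change 3.47, SE 0.75, adjusted p 0.0468, edgeR). Ern2, the ER stress sensor of mucous cells, rose from 1.34 to 2.54 CPM to 10.3 to 37.6 CPM (3.48, SE 0.54). Sytl2, a granule exocytosis factor, rose from 1.20 to 3.07 CPM to 14.9 to 15.6 CPM (3.03, SE 0.42). Clca1, a protein secreted with mucus, rose by a log2 fold change of 4.90 (SE 0.99), Bcas1 by 3.51 (SE 0.65) and Klf4, a goblet cell transcription factor, by 1.18 (SE 0.17). Spink4, a goblet cell protease inhibitor, fell by 2.20 on the log2 scale (SE 0.41).

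With the organoid line as a block Ern2, Sytl2 and Spink4 passed, at adjusted p-values in edgeR of 0.0318, 0.0397 and 0.0342, and Spdef, Clca1, Bcas1 and Klf4 did not, at 0.0534 to 0.0852. Under the block 18.75% of the tested members were called, against 1.47% of all genes tested, again a description of a list chosen with earlier results known. Agr2, the disulfide isomerase that mucin folding needs, measured 24.5, 43.0 and 30.6 CPM in heterozygous cultures and 192, 68.4 and 64.5 CPM in LOH cultures. Every LOH library was above every heterozygous one, as for 16.4% of all genes tested, but the log2 fold change of 1.73 did not pass (adjusted p 0.0809, edgeR). Of the trefoil peptides, which are secreted with mucins, Tff1 had 72.6, 25.2 and 21.8 CPM and 456, 24.7 and 95.1 CPM. Tff2 had 17.5, 16.5 and 10.6 CPM and 50.9, 7.02 and 9.50 CPM, lower in LOH in lines 23 and 34. Tff3 had 4.20, 11.4 and 5.17 CPM and 36.3, 0.227 and 26.2 CPM, lower in LOH in line 23. Neither Tff1 nor Tff2 or Tff3 passed. Of the 10 members not tested, Clca4b and Zg16 had up to 37 and 24 counts. The others, among them Atoh1, Gfi1, Reg4 and Retnlb, had at most 3 in a library. Tgm2, a transglutaminase, had 81.2 to 93.4 CPM in heterozygous and 13.7 to 114 CPM in LOH libraries (log2 fold change -0.66, adjusted p 0.555, edgeR).

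A list of 10 genes held proteins that bind membrane mucins or signal with them, and Vil1, a protein of the microvilli. Of these genes 9 were tested and 1, Vil1, was called (11.1% of the tested members against 5.21% of all genes tested). Under the block 0 were called. This list too was chosen with earlier results of these data known. Vil1, the actin bundler of microvilli, rose from 107 to 144 CPM to 194 to 248 CPM (log2 fold change 0.92, SE 0.20, adjusted p 0.0481, edgeR; 0.113 with the block). Erbb2 and Erbb3, which are known partners of Muc4, lay higher in every LOH library than in any heterozygous one. With Vil1 that is 3 of the 9 tested members, against 16.4% of all genes tested. Erbb2 and Erbb3 did not pass, at log2 fold changes of 0.92 and 0.97 with adjusted p-values in edgeR of 0.0661 and 0.0952. Met, the receptor named above with Muc20, and Egfr overlapped between the groups, at log2 fold changes of -0.36 and -0.12 (adjusted p 0.504 and 0.855, edgeR). Of the 9 tested members 6 had a log2 fold change above 0, as had 54% of all genes tested. Ctnnb1 (beta-catenin), with a mean of 937 CPM, and the membrane linker Ezr, with a mean of 596 CPM, had log2 fold changes of -0.04 and 0.13.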

How the data were processed

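Libraries were made from total RNA with a kit that keeps strand, per the labels' protocols. The submitters' processing notes name FastQC 0.11.5, STAR 2.5.2b, RSEM 1.3.0, DESeq2 1.44.0 and the build GRCm38.p5. The authors deposited expected counts, which are RSEM's estimates and need not be whole, and TPM, scaled for length and depth over all annotated genes, in gene and transcript tables per the file headers. The deposited normalized counts, a signal of counts over a size factor, gave only gene names and the protein-coding set. Effective lengths, another deposited value, were read for length checks. The strand setting of the counting is not given in the sources used here. Coordinates and coding sequences came from GENCODE mouse release 21 and promoters from RefSeq (GRCm38.p6).

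Expected counts were rounded to whole numbers, filtered with filterByExpr (14537 genes kept), scaled by TMM and compared by a two-sided quasi-likelihood test in edgeR 4.0.16 (R 4.3.3), 3 LOH against 3 heterozygous libraries, with Benjamini-Hochberg adjustment over all genes tested and a threshold of 0.05. Each standard error was taken as the log2 fold change over the root of F, the test statistic. Within-line log2 ratios used log2 CPM with a prior count of 2 and have no test. Titles place the libraries of 1 number in the same organoid line, which pairs the samples by number. Their deviations from the group means correlated at -0.3, 0.009 and 0.29 in lines 6, 23 and 34. The fit blocked on line is given where it changed a call. Alternatives tried were scaling by RLE or by upper quartile, no count filter, at least 10 counts in every library, protein-coding genes only, single libraries or whole lines left out, DESeq2 1.42.0, and limma 3.58.1 with 1 or 0.1 added to TPM before log2, for genes that reached a TPM of 1 in 3 libraries. Summing Muc4 with Muc20 and using only 1 Muc20 transcript were chosen after seeing the data. The script was tested on simulated data. Exact 95% intervals of count ratios leave out all but counting error, and reads carried no molecular identifiers.

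The members and the gene lists were chosen with earlier results of these data known. Named were all 9 mucins, other mucin genes averaging at least 1 CPM, list genes that passed (up to 6 in each direction) or had the 4 highest levels, and the 3 genes nearest to each called mucin. Neighbouring genes were named where they passed or lay next to a mucin, after their values were seen. Tff2, Tff3, mucous cell genes that were not tested, Erbb2, Met and Egfr were also named after their values were seen. Figures and tables used Python 3.11.15, pandas 2.3.3, scipy 1.17.1 and matplotlib 3.10.9. An allele that all 6 libraries share is not reported here.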

Additional observations from a re-analysis of the deposited data

Results flagged for a closer look

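The log2 ratio of LOH over heterozygous pointed in opposite directions in different organoid lines for 3 of the 9 mucins. Each line has 1 library per genotype, so these differences between lines were not tested. Muc5b had -1.34 in line 6 against 4.60 in line 23 and 3.15 in line 34, a span of 5.93. Muc5ac had -0.34 in line 6 against 2.36 in line 23 and 1.65 in line 34, a span of 2.70. Muc1 had 0.57 in line 6, 1.19 in line 23 and -0.47 in line 34, a span of 1.66.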

How the results depend on the processing

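Over all genes tested 757 passed (516 higher, 241 lower), and the count was 213 with the organoid line as a replicate block, 2281 in DESeq2, 1911 in limma on log2(TPM + 1) and 1753 on log2(TPM + 0.1). The limma calls were 280 higher and 1631 lower, and 267 higher and 1486 lower, on a scale where the median of all genes lay at -0.35 and -0.42. Leaving out single libraries or lines gave 0 to 2449 calls over all genes, with 1135 higher and 1314 lower without LOH line 6, and 2097 to 2966 genes at an unadjusted p under 0.05 in the 5 fits with 0 calls. Of the mucins 1 passed, against 3 with no filter, 5 in DESeq2 and 0 with at least 10 counts in every library, where Muc13 was not tested. Leaving out libraries or lines gave 0 to 5 mucins. Of the O-glycosylation genes 6 passed, against 2 with the replicate block and 12 in DESeq2, and 0 to 9 with libraries or lines left out. Of the mucous cell genes 7 passed, against 3 with the replicate block, 4 and 4 in the limma fits, and 0 to 8 with libraries or lines left out. Beside these counts, 5.21% of all genes tested passed in the main fit, 3.62% with no filter and 1.47% with the block. The share was 15.7% in DESeq2 and 16.2% without LOH line 6. The replicate block changed the call of no mucin. Muc13 passed in 12 of 17 alternatives and its log2 fold change stayed between 6.13 and 7.21 in the count fits. Muc1 turned to -0.0375 and -0.0395 in the limma fits, and the 8 other mucins kept a log2 fold change above 0 in each alternative that gave one. The cause of these shifts was not tested. Depth limits Muc3, Muc2 and the heterozygous level of Muc13, which rest on at most 11 counts in each heterozygous library.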
